A study of Mus musculus with 6 samples.

Results

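The cytosolic ribosome is built from ribosomal RNA and a fixed set of ribosomal proteins, 1 copy of most in each particle. Its genes were followed here in sorted spleen CD4 T cells. Members were all rows of the count table whose identifier belongs to a protein-coding gene, in GENCODE M21 on GRCm38, with the symbol Rpl, Rps or Rplp and a digit, or Rpsa, leaving out the S6 kinases (Rps6k) and Rps19bp1. The rule gave 91 of the 47729 genes in the table. They comprised 43 genes of the large subunit, 31 of the small subunit, the 3 stalk genes Rplp0, Rplp1 and Rplp2, 8 paralogs such as Rpl22l1, and 6 retrocopies that the annotation lists as coding. All 91 had a count in at least 1 library, and 86 passed the filter on low counts and were tested. Rpl10l, Rpl39l, Rpl3l, Rpl36-ps4 and Rpl9-ps1 did not pass it.

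RNA-seq of total RNA was made from 3 groups of 2 samples. OFF and ON were immature naive CD4 T cells of RBPJind mice, sorted from spleen by CD3, CD4, absence of CD25 and intermediate CD45RB. RBPJ is the DNA-binding partner of Notch, and in RBPJind mice doxycycline (Dox) induces it. OFF mice were given Dox for 3 weeks and then went 1 week without it, and their cells are described as unresponsive to Notch while they matured. ON mice were given Dox for 4 weeks, and their cells as responsive. WT were mature naive CD4 T cells of wild type mice with high CD45RB, also labelled Dox, with no duration given. Genotype, gate and maturity therefore differ together between either RBPJind group and WT and cannot be told apart, and OFF and ON differ in Dox itself as well as in Notch responsiveness. The labels do not say which cells carry the induced RBPJ, nor whether 2 samples of one group are from different animals. The p-values therefore cover the spread between these libraries and no more, and that spread may be technical.

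Ribosomal proteins are made in matched amounts, and surplus protein is degraded in the nucleus. Much of their control in mammals is translational. Their mRNAs begin with a C followed by a run of pyrimidines, the 5′ terminal oligopyrimidine (TOP) motif, through which mTORC1 and the RNA-binding protein Larp1 set whether they are translated, so mRNA level is only a part of their output. Introns of many of these genes carry small nucleolar RNAs (snoRNAs), which guide modification of ribosomal RNA and are cut out of the host transcript. In naive T cells ribosome content is low and is built up when the cell is activated.

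The start of the transcript is shown for the called genes that have an entry in the RefSeq promoter table, and for 3 members with long pyrimidine runs for comparison. Each line gives 10 bases before the annotated start and 20 from it, 5′ to 3′, and capitals mark the pyrimidine run where it begins with C at the annotated start and has at least 4 more C or T after it.
Rpl14: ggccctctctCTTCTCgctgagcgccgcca
Rpl37: cctgggcggaagcttatccacaggaagtgg
Rps16: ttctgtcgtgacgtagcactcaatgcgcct
Rps21: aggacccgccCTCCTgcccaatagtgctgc
Rps27rt: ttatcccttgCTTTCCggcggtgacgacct
Rps28: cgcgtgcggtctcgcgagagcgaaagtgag
Rpl35a: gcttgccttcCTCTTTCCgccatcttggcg
Rps6: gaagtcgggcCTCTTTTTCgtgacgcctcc
Rpl28: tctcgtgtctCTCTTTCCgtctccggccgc
On RefSeq GRCm38.p6 these windows lie at chr9:120571507-120571536 (plus strand) for Rpl14, chr15:5116603-5116632 (plus strand) for Rpl37, chr7:28350679-28350708 (plus strand) for Rps16, chr2:180257369-180257398 (plus strand) for Rps21, chr9:114982720-114982749 (minus strand) for Rps27rt, chr17:33824543-33824572 (minus strand) for Rps28, chr16:33056472-33056501 (plus strand) for Rpl35a, chr4:86857348-86857377 (minus strand) for Rps6 and chr7:4792955-4792984 (plus strand) for Rpl28. Of the 91 members 65 matched an entry by symbol, and 14 of these (21.5%) had the run at the annotated start, against 3.01% of all 27025 genes in the table. Within 10 bases either side of the start, on the transcribed strand, 40 of the 65 (61.5%) had such a run, against 34.4% of all genes. A gene with more than 1 annotated start was counted where any of them had the run, and for Rps21 and Rpl35a such a start is the one shown. Annotated starts can sit some bases from the start a cell uses, so a missing run says only that it is not at this position. Among tested members the 14 with the run at the start had median log2 fold changes of 0.06 in OFF against ON, -0.17 in ON against WT and -0.13 in OFF against WT, and the 48 without it had medians of -0.04, -0.02 and -0.09 in the same comparisons. Rpl14, Rps21 and Rps27rt, which had the run, moved in different directions between ON and WT, as given below.

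Counts assigned to genes ranged from 17025551 to 19319183 per library, and 15780 genes were tested. Replicate libraries differed by more than counting noise, and most in ON, where chi-square over all genes divided by its degrees of freedom was 69.5, against 20.1 in OFF and 9.90 in WT. Defining markers of CD4 T cells were abundant in every library (summed CPM of Cd3d, Cd3e, Cd3g, Cd4, Trac and Cd28 of 1921 to 2662). The highest sum was in ON 2, where Cd3g had 1060 CPM, against 447 to 534 CPM in the other libraries. Cd28 alone of the 6 was called, lower in ON than in WT (adjusted p = 0.0359 at a log2 fold change of -0.60 ± 0.16 SE, edgeR). That call was lost without ON 2, without either WT library, with no filter on low counts and with replicate numbers as a block. Reads that did not align made up 22.1% and 24.3% in OFF, 14.8% and 9.34% in ON, and 21.8% and 18.8% in WT. All levels are CPM, the count scaled to the TMM-normalised library size, and are relative to the other RNA of the same library. In sorted bulk samples fewer cells that express a gene and less of its RNA per cell cannot be told apart.

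Ribosomal protein genes took a smaller part of the gene counts in OFF than in either other group. Their summed share was 5.08% and 5.08% in OFF, 5.83% and 6.88% in ON, and 5.83% and 5.70% in WT. Both OFF libraries lay below all others, ON 2 lay above all others, and ON 1 was level with WT 1. OFF minus ON was -1.28 percentage points, ON minus WT 0.594 and OFF minus WT -0.686, each with a 2-sided exact permutation p of 0.333, the smallest that 2 against 2 libraries can give. Taken as a share of protein-coding counts alone, it was 7.56% and 7.60% in OFF, 8.13% and 9.03% in ON, and 8.92% and 8.34% in WT. On that denominator OFF stayed lowest (-0.998 against ON and -1.05 against WT), and the difference between ON and WT was -0.0516. The part that the unaligned reads, which were fewest in ON, have in these shares was not tested.

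**Figure D1:**
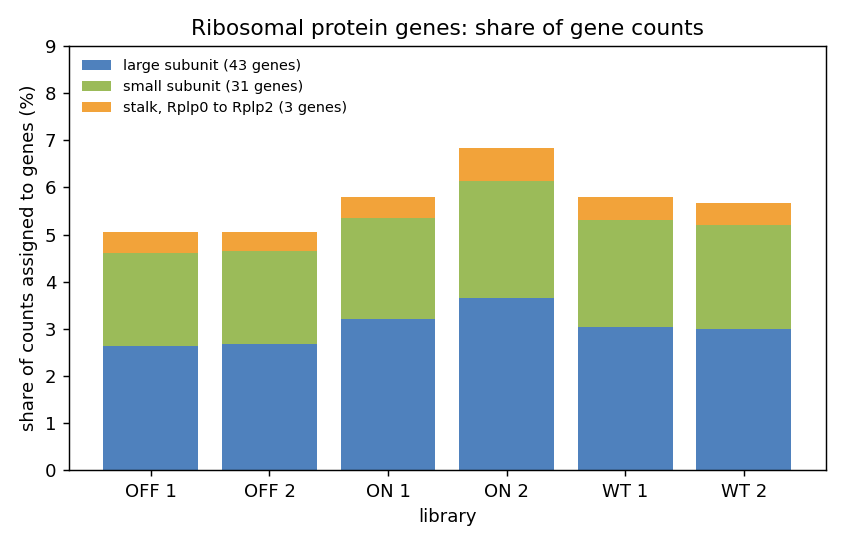
Share of all gene counts (%, vertical axis) taken by large subunit, small subunit and stalk genes in each library, with OFF at the left, ON in the middle and WT at the right. The large subunit took 2.64% and 2.67% in OFF, 3.21% and 3.66% in ON and 3.03% and 2.99% in WT, and the stalk took 0.707% in ON 2 against 0.408% to 0.489% in the other libraries.

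Levels spanned a wide range. Per kb of annotated exon, averaged over the 6 libraries, Rplp1 (2680 CPM per kb), Rps23 (1289) and Rplp0 (1249) were highest, where Rplp0 and Rplp1 form the stalk that recruits the elongation factors and Rps23 lies at the decoding centre. The lowest tested were Rpl24 (0.533), Rpl10-ps3 (1.09) and Rpl36a-ps1 (4.51). Rpl24 encodes a standard large subunit protein, yet only 7 to 16 reads were counted for it in each library. The annotation overlaps 47.0% of its exon length with Gm28037 on the same strand, and 80.9% of its 75-base stretches occur in transcripts of other genes. The part of that overlap in the low count was not tested.

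OFF was compared with ON to ask what Notch responsiveness during maturation changes. Here 0 members were called by edgeR's quasi-likelihood test at an adjusted p under 0.05, where 1.03% of all tested genes were called (0.602% higher and 0.425% lower). At an unadjusted p under 0.05 there were 28 of 86 members, 8 higher and 20 lower in OFF. The share of all tested genes at that threshold was not computed, so this count cannot be read as a result about the members. DESeq2 called 10 members lower and none higher, among them Rpl14, Rpl26, Rpl36al, Rpl37 and Rps6, where it called 3.15% of all tested genes, and limma-voom called 0, where it called 0.627%. The median log2 fold change of the members was -0.05, against 0.00 over all tested genes, and 51 of 86 lay below 0. Groups did not overlap for 22 members with OFF higher (25.6%, against 23.4% of all tested genes) and for 30 with OFF lower (34.9%, against 23.3%).

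Medians of the subunits lay on either side of 0 in this comparison. Of the 43 large subunit genes 30 lay below 0 in OFF against ON, with a median of -0.18. Of the 31 small subunit genes 14 did, with a median of 0.03. The sign of that median changed without ON 1 (-0.01), without OFF 2 (-0.01) and with a filter at a mean CPM of at least 1 (-0.004). All 3 stalk genes lay below 0, with a median of -0.27, which was 0.03 without ON 2. The difference between the subunits was not tested.

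Among members with a mean of at least 5 CPM, the lowest log2 fold changes of OFF against ON belonged to Rpl37, Rpl36al, Rpl26, Rpl14 and Rpl22. Rpl37 (eL37) had 352 and 331 CPM in OFF, 472 and 724 CPM in ON and 364 and 374 CPM in WT. Both ON libraries were above all others, and ON 2 was well above ON 1 (adjusted p = 0.0697 at a log2 fold change of -0.81 ± 0.18 SE, edgeR). Rpl36al, a paralog of Rpl36a, had 83.9 and 81.6 CPM in OFF, 118 and 163 CPM in ON and 100.1 and 97.5 CPM in WT. Its OFF libraries were lowest and its ON libraries highest (adjusted p = 0.0534 at a log2 fold change of -0.76 ± 0.15 SE, edgeR). Rpl26, which in human cells also binds the p53 mRNA, had 1299 and 1173 CPM in OFF, 1716 and 2263 CPM in ON and 1384 and 1439 CPM in WT. It too was highest in ON and lowest in OFF, without overlap (adjusted p = 0.0697 at a log2 fold change of -0.69 ± 0.15 SE, edgeR). Rpl22, whose loss in mice blocks the development of alpha beta T cells, had 539 and 482 CPM in OFF, 643 and 901 CPM in ON and 578 and 567 CPM in WT, again with no overlap between OFF and ON (adjusted p = 0.107 at a log2 fold change of -0.60 ± 0.16 SE, edgeR). Rpl22l1, its paralog, had 57.6 and 59.1 CPM in OFF, 51.6 and 56.1 CPM in ON and 57.5 and 50 CPM in WT, with OFF above ON by a small margin.

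The highest in the same range belonged to Rps21, Rpl39, Rpl30, Rps29 and Rps20, none of them called. Rps21 (eS21) had 284 and 317 CPM in OFF, 229 and 209.97 CPM in ON and 375 and 312 CPM in WT. Both ON libraries were lowest, and OFF overlapped WT (adjusted p = 0.123 at a log2 fold change of 0.45 ± 0.13 SE, edgeR). Rpl39, which lines the exit tunnel of the large subunit, had 153 and 153 CPM in OFF, 109 and 118 CPM in ON and 158 and 136 CPM in WT. Both ON libraries were below all others (adjusted p = 0.116 at a log2 fold change of 0.43 ± 0.12 SE, edgeR). Rps20 had 587 and 612 CPM in OFF, 443 and 503 CPM in ON and 636 and 557 CPM in WT, with OFF above ON and inside the WT range (adjusted p = 0.187 at a log2 fold change of 0.34 ± 0.13 SE, edgeR). Without ON 1, 18 members were called lower in OFF and 0 higher, including Rpl5, Rpl22, Rps6, Rpsa, Rplp0 and Rplp1, where 3.55% of all genes were called. Without ON 2 none was called, where 1.07% of all genes were.

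ON was compared with WT, a comparison that sets responsive immature cells against mature wild type cells. Of 86 members 8 were called (9.30%), against 14.8% of all tested genes. Rpl37 and Rpl14 were higher in ON, which is 2 members where 9.68% of all genes were called higher, and Rps21, Rps16, Rpl30, Rps28, Rps29 and Rps27rt were lower, which is 6 where 5.16% were called lower. The median log2 fold change was -0.02, the same as over all tested genes (-0.02). Groups did not overlap for 18 members with ON higher (20.9%, against 29.8% of all tested genes) and for 29 with ON lower (33.7%, against 30%). Large subunit genes had a median of 0.05, which was -0.01 without ON 2. It was -0.02 with upper quartile scaling, where the median of all genes was -0.09. Small subunit genes had a median of -0.11, with 23 of 31 below 0. Stalk genes had a median of 0.19, which was -0.21 without ON 2.

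Rpl37 and Rpl14 stood out as higher in ON. Rpl37, with the levels given above, was 1.62-fold higher in ON than in WT (adjusted p = 0.0305 at a log2 fold change of 0.70 ± 0.18 SE, edgeR). Rpl14 (eL14), whose transcript start carries a TOP run, had 421 and 429 CPM in OFF, 585 and 713 CPM in ON and 459 and 466 CPM in WT. Both ON libraries were above all others (adjusted p = 0.0317 at a log2 fold change of 0.49 ± 0.13 SE, edgeR). Both calls were lost without ON 2 and without either WT library.

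Of the 6 lower members 4 were classed as small subunit genes. Rps27rt, a copy of the small subunit gene Rps27, was classed as a paralog. Rps21, whose transcript also starts with a TOP run, was 1.57-fold lower in ON than in WT (adjusted p = 0.0126 at a log2 fold change of -0.65 ± 0.13 SE, edgeR). Rps16 (uS9), whose tail reaches the tRNA in the P site, had 489 and 507 CPM in OFF, 410.1 and 377 CPM in ON and 603 and 531 CPM in WT. ON was lowest, WT highest and OFF between them (adjusted p = 0.0204 at a log2 fold change of -0.53 ± 0.12 SE, edgeR). Rpl30 (eL30), which in yeast binds its own transcript and blocks its splicing, had 304 and 333 CPM in OFF, 263 and 232 CPM in ON and 368 and 332 CPM in WT. The ON libraries lay below all others (adjusted p = 0.0266 at a log2 fold change of -0.50 ± 0.12 SE, edgeR).

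Rps28 (eS28), which lies near the mRNA exit channel, had 373 and 414 CPM in OFF, 342 and 304 CPM in ON and 455 and 424 CPM in WT, with ON lowest (adjusted p = 0.0384 at a log2 fold change of -0.45 ± 0.12 SE, edgeR). Rps29 (uS14), a zinc-binding protein of the small subunit head, had 296 and 389 CPM in OFF, 285 and 248 CPM in ON and 421 and 364 CPM in WT. ON was below all other libraries, and OFF overlapped WT (adjusted p = 0.0401 at a log2 fold change of -0.56 ± 0.16 SE, edgeR). Rps27rt, an intronless copy of Rps27, had 50.4 and 50.1 CPM in OFF, 36.0 and 45.9 CPM in ON and 61.1 and 55.7 CPM in WT, with ON below OFF and OFF below WT (adjusted p = 0.0406 at a log2 fold change of -0.51 ± 0.14 SE, edgeR). Its sequence is 90.3% shared with other transcripts in stretches of 75 bases, and the parent Rps27 was not called (adjusted p = 0.0780 at a log2 fold change of -0.36 ± 0.12 SE, edgeR), so how counts divide between them is uncertain. All 6 calls were lost without WT 1 and without WT 2, and those of Rps16, Rpl30, Rps28 and Rps29 also without ON 2. The call of Rps27rt was lost without ON 1 or OFF 1.

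**Figure D2:**
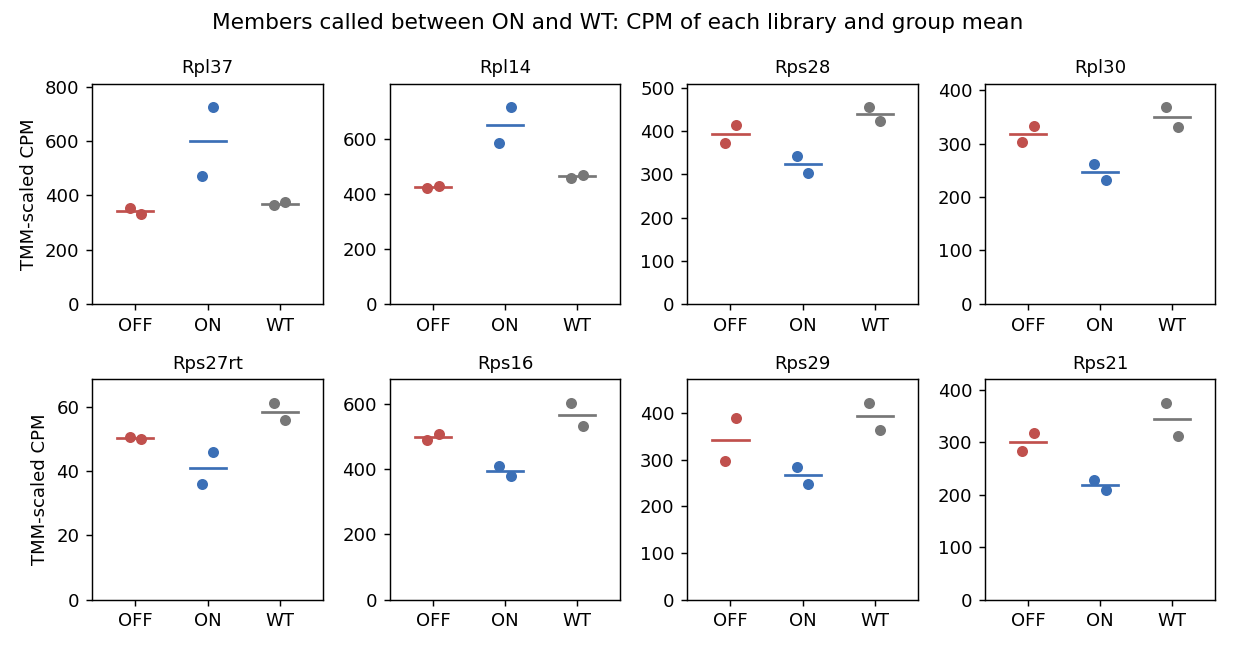
CPM (vertical axes, from 0) of the 8 genes called between ON and WT, 1 point per library and a line at the group mean, with OFF, ON and WT from left to right. Rpl37 and Rpl14 are highest in both ON libraries, and the other 6 genes are lowest in both ON libraries, and in each of the 8 the OFF mean is nearer to the WT mean than to the ON mean.

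Without either WT library no member was called, and 2.92% (without WT 1) and 2.08% (without WT 2) of all genes were. Without ON 2 there were 3 calls, all lower, against 11.4% of all genes, and without ON 1 there were 21, 14 higher and 7 lower, against 12.1%. The members nearest to the threshold without passing it in edgeR were Rpl36al (log2 fold change 0.51, adjusted p = 0.0508), Rpl26 (0.50, adjusted p = 0.0540) and Rps6 (0.41, adjusted p = 0.0555). Rps6 is the substrate of the S6 kinases downstream of mTORC1, and it had 1062 and 978 CPM in OFF, 1388 and 1588 CPM in ON and 1121 and 1127 CPM in WT.

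OFF was compared with WT as the other setting of immature against mature cells. In edgeR 0 members were called, where 6.83% of all tested genes were (4.7% higher and 2.14% lower), and DESeq2 and limma-voom also called 0. At an unadjusted p under 0.05 there were 3 members, all lower, among them Rps24 and Rps19, and here too the share of all tested genes was not computed. The shift was small and nearly uniform in sign. Of 86 members 72 lay below 0, against 48.9% of all tested genes, with a median of -0.11 against 0.01. Among the 2028 tested genes with a mean of at least 82.5 CPM, a level that most members reach, the median was 0.04. Groups did not overlap for 50 members with OFF lower (58.1%, against 25.8% of all tested genes) and for 2 with OFF higher (2.33%, against 29.8%).

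Large subunit genes (38 of 43 below 0, median -0.10), small subunit genes (26 of 31, median -0.14) and stalk genes (3 of 3, median -0.18) all showed it. The count below 0 was 58 without WT 1, 60 of 87 without OFF 1, and 78 to 80 of 87 without WT 2 or OFF 2, and it was 53 of 91 with no filter on low counts. With no filter the median of the members was -0.02 and that of all genes was lower, at -0.29. Rps24 and Rps19 are both among the genes mutated in Diamond-Blackfan anaemia in human patients. Rps24 had 988 and 1098 CPM in OFF, 1010.2 and 951 CPM in ON and 1339 and 1205 CPM in WT, with WT above all other libraries (adjusted p = 0.211 at a log2 fold change of -0.29 ± 0.12 SE, edgeR). Rps19 had 519 and 527 CPM in OFF, 463 and 528 CPM in ON and 652 and 609.8 CPM in WT, and WT was again highest (adjusted p = 0.222 at a log2 fold change of -0.27 ± 0.12 SE, edgeR).

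Rpl12 and Rpl21 had the lowest log2 fold changes of this comparison. Rpl12, which lies at the base of the stalk, had 898 and 859.6 CPM in OFF, 1030.1 and 1361 CPM in ON and 1133 and 1064 CPM in WT, with OFF below both other groups (adjusted p = 0.236 at a log2 fold change of -0.32 ± 0.15 SE, edgeR). Rpl21 had 861 and 911 CPM in OFF, 1284 and 1062 CPM in ON and 1103 and 1064 CPM in WT, with OFF below WT and below ON (adjusted p = 0.226 at a log2 fold change of -0.29 ± 0.13 SE, edgeR). The highest with a mean of at least 5 CPM were Rps27l, Rpl22l1, Rpl10, Rps12 and Rpl41, at log2 fold changes of 0.08 to 0.14, and for Rps27l, Rps12 and Rpl41 the sign changed without OFF 2. Markers of other cell types moved in the same comparison. The B cell marker Cd79a had 3.35 and 5.71 CPM in OFF, 2.04 and 2.28 CPM in ON and 1.20 and 0.814 CPM in WT, and Cd79b had 3.41 and 5.59 CPM in OFF, 3.73 and 3.22 CPM in ON and 0.957 and 0.930 CPM in WT. Both were called higher in OFF than in WT, as was Ms4a1, and Cd79b and Ms4a1 were called higher in ON than in WT. Summed CPM of the myeloid markers Lyz2, Csf1r and Itgam was 21.5 and 35.1 in OFF, 19.6 and 20.1 in ON and 11.0 and 11.3 in WT, with Lyz2 called higher in OFF, and in ON, than in WT. All of these were far below the CD4 T cell markers, and their part in the ribosomal protein values was not tested.

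**Figure D3:**
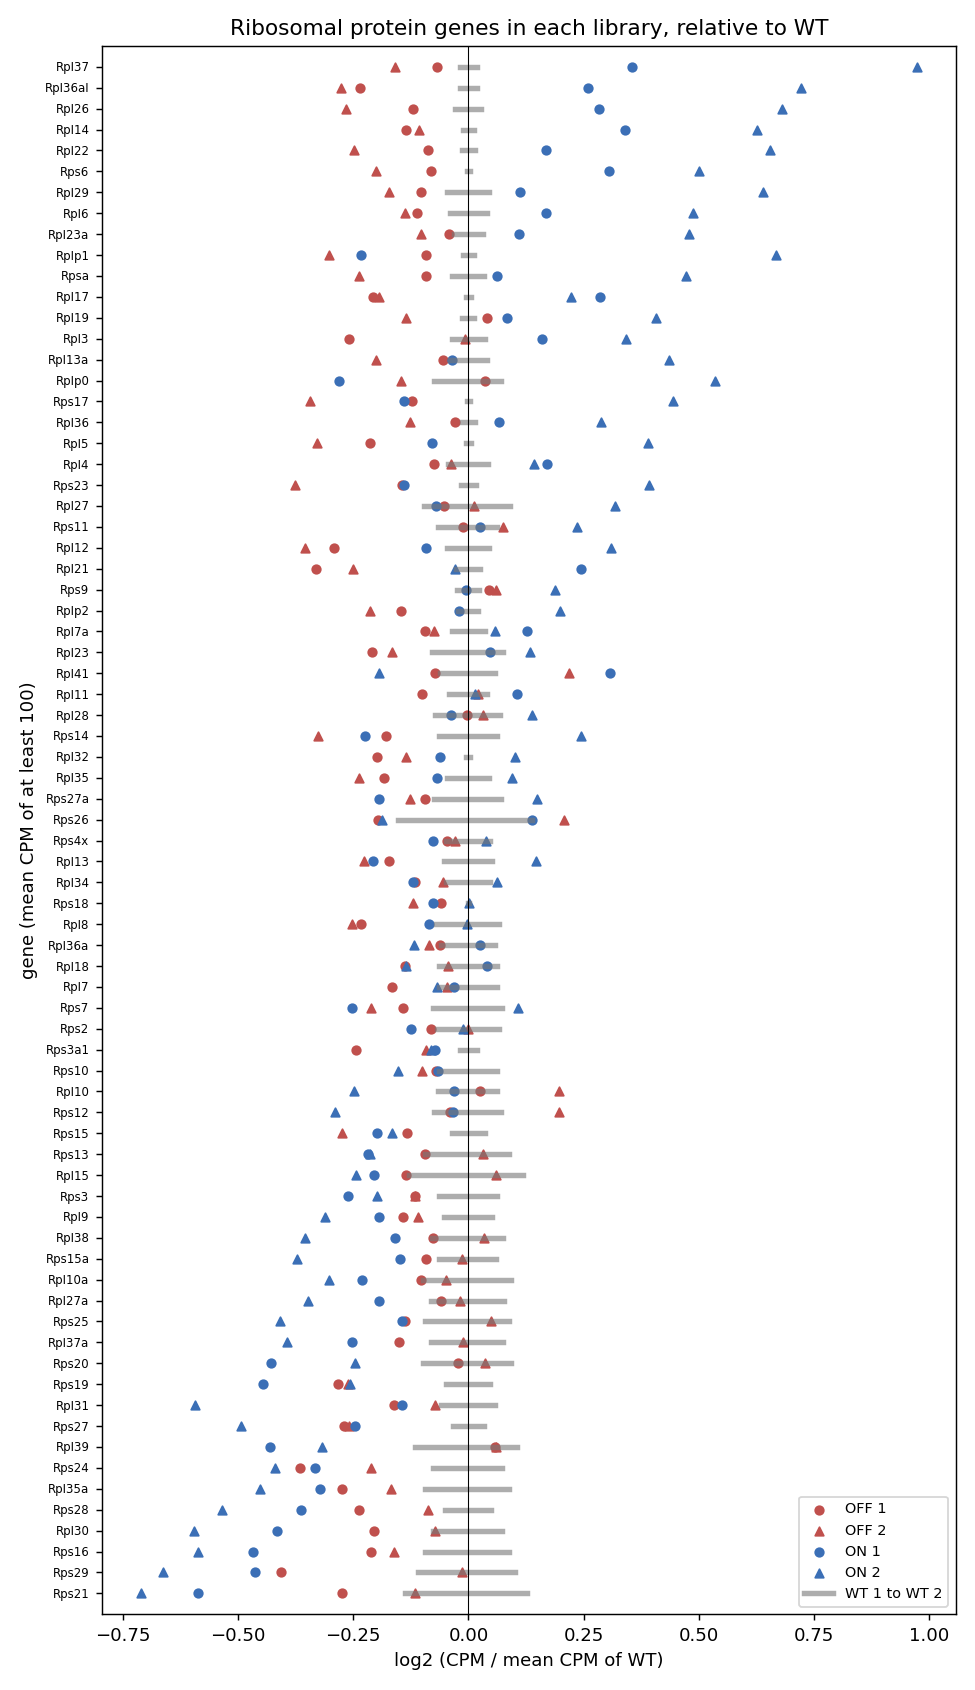
Log2 ratio of each OFF library (red) and ON library (blue) to the WT mean CPM (horizontal axis) for 74 tested members with a mean of at least 100 CPM, 1 row per gene ordered by the ON against WT fold change, with circles for replicate 1, triangles for replicate 2 and a grey bar from WT 1 to WT 2. Most red points lie a little left of 0, while the blue points run from well right of 0 for Rpl37 to well left of 0 for Rps21, and ON 2 lies farther out than ON 1 in most rows at either end.

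The 2 libraries of a group also differed in relative levels. The ratio of ON 2 to ON 1 ran between 0.706 and 1.53 over large subunit genes and between 0.798 and 1.5 over small subunit genes, against 0.842 to 1.06 and 0.817 to 1.01 for WT 2 over WT 1. For OFF 2 over OFF 1 the ratios ran between 0.885 and 2.38 over large subunit genes, where the highest belonged to Rpl24 with its few counts, and between 0.851 and 1.32 over small subunit genes. Stalk genes had the highest median ratio of the functional classes in ON, at 1.76. Rplp0 had 2055 and 1812 CPM in OFF, 1652 and 2907 CPM in ON and 2107 and 1903 CPM in WT. ON 1 was the lowest library and ON 2 the highest. Rplp1 had 1215 and 1052 CPM in OFF, 1104 and 2059.9 CPM in ON and 1307 and 1285 CPM in WT, where ON 2 again stood alone at the top. Rplp2 had 1418 and 1354 CPM in OFF, 1548 and 1800.4 CPM in ON and 1593 and 1546 CPM in WT, with a smaller gap. None of the stalk genes was called in any comparison with all 6 libraries.

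Fold change and abundance were related. Across the 86 tested members, the log10 of mean CPM and the log2 fold change had a Spearman correlation of -0.62 in OFF against ON, 0.526 in ON against WT and -0.412 in OFF against WT (Pearson -0.495, 0.373 and -0.479). Abundance also went with the ratio of replicate 2 to replicate 1 within a group, at a Spearman correlation of -0.475 in OFF, 0.299 in ON and 0.45 in WT (n = 86). These points share the same 6 libraries, and the 3 comparisons share groups, so the values are a description. The 20 most abundant members, which include Rpsa, Rpl5, Rplp0, Rpl13a and Rps23, had a median of -0.38 in OFF against ON (19 of 20 below 0), 0.17 in ON against WT (16 of 20 above 0) and -0.17 in OFF against WT (20 of 20 below 0). The 20 least abundant of those with at least 100 CPM, among them Rpl38, Rps25, Rps21, Rpl30 and Rps28, had medians of 0.19, -0.25 and -0.07. Without ON 2 the median of the abundant 20 was -0.18 in OFF against ON and 0.00 in ON against WT, and that of the less abundant 20 was 0.12 and -0.17. The length of the mRNA went weakly with the fold change (Spearman -0.293, 0.28 and -0.034).

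Several members also act outside the ribosome or have been tied to translation of particular mRNAs, and none of these was called. Rpl5 and Rpl11 bind 5S ribosomal RNA and, when free, hold back the p53 ligase Mdm2. Rpl5 had 1815 and 1676 CPM in OFF, 1991 and 2756 CPM in ON and 2112 and 2097 CPM in WT, with ON 2 highest. Rpl11 had 375 and 408 CPM in OFF, 432 and 406 CPM in ON and 414 and 390.3 CPM in WT, and its groups overlapped in all comparisons. Rpsa, a small subunit protein also known as a laminin receptor, had 2675 and 2421 CPM in OFF, 2976 and 3958 CPM in ON and 2922 and 2784 CPM in WT, with ON above and OFF below WT. Rpl13a, which in human myeloid cells leaves the ribosome to silence inflammatory mRNAs, had 1628 and 1470.4 CPM in OFF, 1649.6 and 2286 CPM in ON and 1643 and 1737 CPM in WT, and ON 2 stood above the other libraries. Rpl38, needed in mice for translation of a set of Hox mRNAs, had 218 and 236 CPM in OFF, 206 and 180.3 CPM in ON and 243 and 218 CPM in WT, and Rps25, needed for several internal ribosome entry sites, had 214 and 244 CPM in OFF, 213 and 178 CPM in ON and 251 and 221 CPM in WT. Both were lowest in ON. Rps27a, made as a fusion with ubiquitin, had 545 and 533 CPM in OFF, 509 and 646 CPM in ON and 612 and 553 CPM in WT, with overlap between ON and WT. Rps4x, on the X chromosome, had 794 and 803 CPM in OFF, 778 and 842 CPM in ON and 847 and 793 CPM in WT, with overlap throughout. Rpl10, another X-linked gene, whose protein joins the large subunit late, in the cytoplasm, had 523 and 589 CPM in OFF, 503 and 432 CPM in ON and 537 and 491 CPM in WT, and OFF lay above ON and overlapped WT.

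Paralogs restricted to other tissues were nearly silent. Rpl10l and Rpl39l, of the testis, had 0 counts in both OFF libraries and 0 to 6 counts in the others, and Rpl3l, of muscle, had 1 to 10 counts per library. Their parents were abundant: Rpl3, whose protein reaches close to the peptidyl transferase centre, had 1033 and 1231 CPM in OFF, 1382 and 1567 CPM in ON and 1268 and 1206 CPM in WT, with ON above both other groups. Rpl7l1 had 46.7 and 53.6 CPM in OFF, 63.5 and 69.0 CPM in ON and 54.8 and 58.2 CPM in WT, far below its parent Rpl7 (908 and 986 CPM in OFF, 997 and 971 CPM in ON and 1063 and 974 CPM in WT), and ran in the order OFF, WT, ON. Rps27l, a p53 target, had 6.01 and 9.55 CPM in OFF, 8.28 and 5.50 CPM in ON and 7.36 and 6.74 CPM in WT, with overlap throughout. Rpl36a, the parent of Rpl36al, had 299.9 and 295 CPM in OFF, 319 and 288 CPM in ON and 326 and 300.5 CPM in WT, and its OFF and ON libraries overlapped. Rps27rt was the only paralog called in edgeR as fitted here with TMM, while 5 of 18 alternatives, DESeq2 among them, called Rpl36al lower in OFF against ON and 6 called it higher in ON against WT.

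Many of these genes have near-identical copies elsewhere in the genome, which limits what a count can be assigned to. There were 266 pseudogenes named after 58 of the members. The median tested member shared 53.4% of its 75-base stretches with transcripts of other genes, 45 of 86 shared over 50%, and 2, among them Rps3, shared none. The stretch length of 75 was chosen here, since the read length is not given in the sources used. The 11 members that shared under 10% had medians of 0.08 in OFF against ON, -0.19 in ON against WT and -0.12 in OFF against WT, and the 45 that shared over 50% had medians of -0.09, -0.02 and -0.11. Rps3 had 904 and 903 CPM in OFF, 817 and 853 CPM in ON and 1022 and 936 CPM in WT. It was lower in OFF and in ON than in WT without overlap, and was not called. Adding the counts of named pseudogenes to their parents left 0, 9 and 0 calls in the 3 comparisons, where 1.03%, 15% and 6.89% of all genes were called.

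No snoRNA called inside a member had a host called in the same comparison. The annotation holds 58 snoRNAs within 30 members on the same strand, of which 23 in 15 hosts were tested. Between OFF and ON 7 were called higher and 0 lower, with a median log2 fold change of 1.16, while the 15 hosts had a median of -0.21 and 0 were called. Between ON and WT 0 were called higher and 9 lower, with a median of -0.77, while the hosts had a median of 0.09. Of the hosts 2 were called, Rpl37 and Rps16, whose own snoRNAs were not called there. Between OFF and WT their median was 0.26. Of 111 other tested snoRNAs, 19 were called higher and 0 lower in OFF against ON, with a median of 0.78, and 1 higher and 35 lower in ON against WT, with a median of -0.75.

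In both comparisons, 4 snoRNAs (Gm24044, Gm22270, Snora21 and Snora69) kept their calls under all 17 alternatives that include noncoding genes. The first 3 are shown from the GENCODE M21 transcripts, 5′ to 3′ in DNA letters. Capitals mark the letters ACA placed 3 bases before the 3′ end, where the H/ACA class, which guides pseudouridylation, has its end box.
Gm24044: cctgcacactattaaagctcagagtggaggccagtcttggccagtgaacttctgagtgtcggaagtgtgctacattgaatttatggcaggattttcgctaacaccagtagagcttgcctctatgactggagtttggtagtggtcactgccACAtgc
Gm22270: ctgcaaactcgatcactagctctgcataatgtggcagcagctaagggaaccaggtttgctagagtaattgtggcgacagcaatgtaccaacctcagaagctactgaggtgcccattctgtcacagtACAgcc
Snora21: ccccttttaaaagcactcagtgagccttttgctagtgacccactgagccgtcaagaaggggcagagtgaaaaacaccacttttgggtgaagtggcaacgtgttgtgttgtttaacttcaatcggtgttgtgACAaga
On GRCm38 Gm24044 spans chr9:120128780-120128935 (plus strand) in Rpsa, Gm22270 spans chr5:107905177-107905308 (plus strand) in Rpl5 and Snora21 spans chr11:97781639-97781775 (minus strand) in Rpl23. The letters ACA at this place were present in 19.3% of the 1558 annotated snoRNAs and scaRNAs.

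Gm24044 had 181 and 155 CPM in OFF, 39.8 and 29.8 CPM in ON and 153 and 143 CPM in WT. Both ON libraries were far below the other 4 (adjusted p = 6.07e-04 at a log2 fold change of 2.27 ± 0.16 SE, edgeR). Its host Rpsa had a log2 fold change of -0.44 in the same comparison. Gm22270 had 28.9 and 18.9 CPM in OFF, 3.17 and 4.26 CPM in ON and 21.7 and 17.3 CPM in WT, with ON again separate from both other groups (adjusted p = 0.00261 at a log2 fold change of 2.68 ± 0.27 SE, edgeR), and its host Rpl5 had -0.44. Snora21, which guides pseudouridylation of the large ribosomal RNA in mammals, had 207 and 159 CPM in OFF, 53.2 and 75.4 CPM in ON and 211 and 187 CPM in WT, with ON lowest (adjusted p = 0.00768 at a log2 fold change of 1.51 ± 0.19 SE, edgeR), and its host Rpl23 had -0.28. The 3 were also lower in ON than in WT, by log2 fold changes of -2.09 (adjusted p = 9.59e-05), -2.39 (adjusted p = 7.74e-04) and -1.63 (adjusted p = 8.59e-04) in edgeR.

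Snora69 in Rpl39, AF357399 in Rps16 and Snord16a in Rpl4 were also called higher in OFF than in ON. AF357399 had 6.64 and 4.33 CPM in OFF, 1.58 and 1.29 CPM in ON and 2.57 and 3.84 CPM in WT, with ON lowest (adjusted p = 0.0443 at a log2 fold change of 1.93 ± 0.36 SE, edgeR). Its call was lost without OFF 1, ON 2, WT 1 or WT 2, and that of Snord16a without OFF 1. Among the hosts Rpl39 and Rps16 had positive log2 fold changes of OFF against ON (0.43 and 0.34, neither called), and Rpl4 a negative one (-0.21). In the comparison of ON with WT, Gm26387 in Rpl5, Gm26448 in Rpsa and Snora33 in Rps12 were also called lower. These 3 calls were lost without WT 1 and without WT 2. That of Gm26387 was also lost without ON 2, that of Gm26448 without ON 1, and that of Snora33 without OFF 1, ON 1 or ON 2, and Snora33 was called in 8 of 17 alternatives.

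The 10 tested snoRNAs with ACA at this place inside ribosomal protein genes, at a median length of 132 bases, had a median of 1.41 in OFF against ON, with 5 called, and -1.35 in ON against WT, with 8 called. The 13 without it, at a median of 90 bases, had 0.15 and -0.47, with 2 and 1 called. The match is of letters and not of class: Gm23130, 1 of the 10, is 74 bases long, and its fold changes were 0.01 and 0.05. Among the other snoRNAs the 57 with these letters had 0.97 and -0.98, with 10 and 24 called. The 54 without them had 0.59 and -0.58, with 9 called in OFF against ON, all higher. In ON against WT 11 of the 54 were called lower and 1 higher. This split was chosen after the values were seen, it goes with length, and the part of RNA length in the recovery of small RNAs was not tested. Fragment selection in these libraries is not given in the sources used here.

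**Figure D4:**
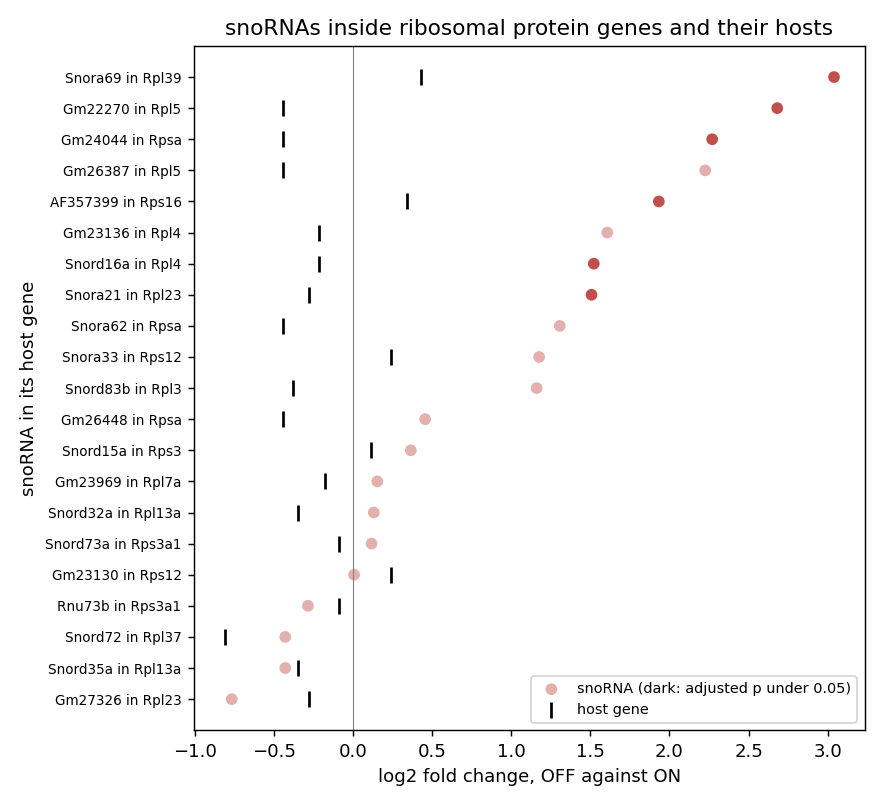
Log2 fold change of OFF against ON (horizontal axis) for 21 tested snoRNAs (points, dark where the adjusted p is under 0.05) and their host genes (black bars), 1 row per snoRNA. 17 of the 21 snoRNAs lie above 0 and up to 3.04, while the hosts lie between -0.81 and 0.43.

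Genes that act with the ribosomal proteins were described from 7 lists. Of ribosome components outside the symbol rule, Fau and Rack1 were not called. Fau, which encodes eS30 as a fusion, had 741 and 688 CPM in OFF, 832 and 1067 CPM in ON and 794 and 716 CPM in WT, with ON 2 highest, and Rack1 had 859 and 841 CPM in OFF, 739.6 and 976 CPM in ON and 889.9 and 830.1 CPM in WT. A further list held 25 translation factors and other genes listed as having TOP mRNAs, but their transcript starts were not checked here. Of these 25 genes, 5 were called higher in ON than in WT and 0 lower, where 9.68% and 5.16% of all tested genes were. Their median there was 0.28. In the other 2 comparisons 0 were called, with medians of -0.22 in OFF against ON and 0.05 in OFF against WT. The 5 called genes were the initiation factor 3 subunits Eif3c, Eif3d and Eif3k, the histone chaperone Nap1l1 and the RNA-binding protein Hnrnpa1. Eif3c had 342 and 350.2 CPM in OFF, 409.8 and 486 CPM in ON and 288 and 294 CPM in WT, with ON highest and WT lowest (adjusted p = 0.0109 at a log2 fold change of 0.62 ± 0.12 SE, edgeR). All 5 calls were lost without WT 1 and without WT 2, and those of Eif3d, Eif3k and Nap1l1 also without ON 2 and that of Nap1l1 without ON 1. The ribosomal protein genes had a median of -0.02 in ON against WT. The difference between the lists was not tested.

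Of 18 regulators of TOP mRNA translation only Eif4ebp2, a repressor of the cap-binding factor eIF4E, was called. It had 75.4 and 75.8 CPM in OFF, 49.1 and 48.5 CPM in ON and 72.9 and 67.0 CPM in WT. Both ON libraries lay below all others, and it was called against OFF (adjusted p = 0.0418 at a log2 fold change of 0.63 ± 0.12 SE, edgeR) and against WT (adjusted p = 0.0175 at a log2 fold change of -0.52 ± 0.12 SE, edgeR). Of 16 genes of ribosomal RNA transcription only Taf1d, a subunit of the RNA polymerase I factor SL1, was called, with 57.8 and 53.7 CPM in OFF, 82.3 and 88.3 CPM in ON and 65.4 and 62.4 CPM in WT. Its level was lower in OFF than in ON (adjusted p = 0.0459 at a log2 fold change of -0.61 ± 0.12 SE, edgeR), and ON lay above WT (adjusted p = 0.0410 at a log2 fold change of 0.42 ± 0.12 SE, edgeR). The calls of Eif4ebp2 and Taf1d in OFF against ON were lost without OFF 1, OFF 2, ON 2, WT 1 or WT 2. Both were also lost with limma-voom, and each was kept in 8 of 18 alternatives. Their calls in ON against WT were lost without either WT library and with no filter on low counts. That of Taf1d was also lost without ON 2 and with upper quartile scaling.

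Of 13 chaperones and importers of ribosomal proteins only Aamp was called, the counterpart of yeast Sqt1, a chaperone of Rpl10, with 115 and 108 CPM in OFF, 129.98 and 231 CPM in ON and 101 and 107 CPM in WT, where ON 2 was apart from ON 1 (adjusted p = 0.0488 at a log2 fold change of 0.79 ± 0.23 SE, edgeR). Of 7 genes of the 5S particle and p53 surveillance only Cdkn1a was called, the p53 target p21, with 0.751 and 1.44 CPM in OFF, 4.40 and 1.34 CPM in ON and 0.718 and 0.291 CPM in WT, a few CPM carried by ON 1 (adjusted p = 0.0477 at a log2 fold change of 2.49 ± 0.72 SE, edgeR). Of 7 genes of ribosome quality control only Ascc3, a helicase that takes collided ribosomes apart, was called, with 119.98 and 119.8 CPM in OFF, 107 and 83.7 CPM in ON and 124 and 141 CPM in WT (adjusted p = 0.0489 at a log2 fold change of -0.48 ± 0.14 SE, edgeR). These 3 calls were between ON and WT. Those of Aamp and Ascc3 were lost without ON 2, that of Cdkn1a without ON 1, and all 3 without either WT or either OFF library. All 3 were also lost with limma-voom, and Aamp, Cdkn1a and Ascc3 were called in 7, 6 and 9 of 18 alternatives. Between OFF and ON, where the other lists had no call, the smallest p belonged to Fau (-0.41, adjusted p = 0.169), Npm1 (-0.62, adjusted p = 0.0545), Ltv1 (-0.56, adjusted p = 0.0720), Cdkn1a (-1.38, adjusted p = 0.261) and Nemf (-0.45, adjusted p = 0.123), as edgeR's log2 fold change and adjusted p. Between OFF and WT no list had a call in edgeR, and the smallest p of all 7 lists belonged to the importin Ipo5 (0.31, adjusted p = 0.152).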

How the data were processed

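The deposited file is 1 table of raw read counts per gene for the 6 libraries. Alignment to GRCm38 after Illumina NovaSeq sequencing is stated per the labels' protocols. R 3.6.2 and edgeR appear in the submitters' processing notes. No source used here gives the aligner, the counter, its use of strand or the read length, so overlapping genes and near-identical copies are uncertain. Summary rows for unassigned reads stayed out of library sizes and tests; reads that did not align made up 9.34% to 24.3%.

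Genes passing filterByExpr (minimum count 10, minimum total 15) were tested on their counts with edgeR 4.0.16 (TMM, robust quasi-likelihood test) in R 4.3.3. All 6 libraries entered 1 fit with 3 residual degrees of freedom, and p-values were adjusted by Benjamini-Hochberg over all 15780 genes. DESeq2 1.42.0, limma-voom 3.58.1, other scalings and filters, and leaving out each library were alternatives. The edgeR fit was tested on simulated counts.

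Members and lists were chosen with earlier results of these data known. Named genes were all called members, the 5 largest log2 fold changes in each direction with a mean of at least 5 CPM, the 3 highest and lowest per kb, a set of known members and paralogs, snoRNA hosts, and called or smallest-p genes of the lists; others named here were chosen after their values were seen. Promoter windows are from the RefSeq table on GRCm38.p6. Same-numbered replicates did not deviate together, so numbers were not treated as pairs. A few genes that entered the counts and medians are not reported here by name.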

Additional observations from a re-analysis of the deposited data

How the results depend on the processing

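Between OFF and ON, where 0 members were called, there was 1 call with RLE scaling, 2 with a mean CPM of at least 1, 10 with DESeq2 (3.15% of all genes) and 19 with crossed replicate numbers as a block (7.67% of all genes), an alternative chosen after seeing the data. Leaving out 1 library gave 0 to 18. The median log2 fold change was -0.0864 under that CPM filter and -0.0139 with no filter (-0.0651 over all genes), and between -0.1364 and -0.0252 when 1 library was left out. Between ON and WT, where 8 were called, DESeq2 called 13 (14.9% of all genes), the replicate block 1 (9.13%), the crossed replicate block 21 (23.8%), and leaving out 1 library 0 to 21, with 0 without either WT library. The median was -0.095 with upper quartile scaling, which moved the median of all genes to -0.0918. Against protein-coding counts the difference in share was -0.0516 for ON minus WT and -1.0493 for OFF minus WT. Between OFF and WT 0 members were called under all alternatives, and the median was -0.0232 with no filter, where that of all genes was -0.2906. Without OFF replicate 2 the sign changed for Rpl41 (-0.0779), Rps12 (-0.0444) and Rps27l (-0.2348). Without OFF replicate 1 these 3 had 0.2487, 0.226 and 0.4682. The cause of these changes was not tested. Correlations of the deviations of same-numbered libraries were -0.198 (OFF against ON), 0.077 (ON against WT) and -0.212 (OFF against WT). The crossed block, with the OFF numbers swapped, called 7.67%, 23.8% and 13.2% of all genes in these comparisons. Without a block the shares were 1.03%, 14.8% and 6.83%. Whether libraries of different groups have anything in common beyond a number was not tested. With 2 libraries a group the calls rest on few degrees of freedom, and members with few counts, such as Rpl24, have wide counting errors.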
